A study of Drosophila melanogaster with 60 samples.

Results

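Cytoplasmic ribosomal protein genes were followed through CUT&RUN maps of H3K4me3 and of RNA polymerase II (RNAPolII) in male Drosophila brains. The members were the protein-coding genes whose symbol starts with RpL or RpS, which leaves out the mitochondrial ribosomal proteins, and there were 92 of them among 13962 protein-coding genes of the gene table. For each antibody a gene was represented by its strongest peak, the overlapping peak with the highest mean over all 30 libraries. CUT&RUN releases the DNA around an antibody bound to chromatin and sequences it. The 5 genotypes were the wild type Canton-S (CS), the Or47b mutant w+/Y; Or47b2/3;+/+, the Or67d mutant w+/Y; +/+; Or67dGAL4/GAL4, the fru mutant w+/Y; +/+; fruLexA/4-40 and the dsx mutant w-/Y; +/+; dsxf00683-d07058/f01649-d09625. Or47b and Or67d are odorant receptors for fly pheromones, and fru and dsx are transcription factors of the sex determination pathway. Males were kept in groups (GH) or singly (SH), with 3 libraries per genotype, housing and antibody. Each H3K4me3 library pooled 15 brains and each RNAPolII library 30. The labels do not say that the mutants were bred into the CS background, and only the dsx males are w-, so mutation and strain background cannot be told apart in any comparison with CS. All brain cells were mixed, so fewer cells of a type and less signal per cell cannot be told apart either.

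The cytoplasmic ribosome has a small subunit, which decodes the messenger RNA, and a large subunit, which joins the amino acids, and each is built of ribosomal RNA and many small basic proteins. The large subunit also carries a flexible stalk of P proteins, which recruits translation factors. The genes for these proteins are among the most strongly transcribed in nearly every cell, many of them start at a pyrimidine-rich initiator that answers to the TOR growth pathway, and losing a single copy of many of them gives the slow-growing Minute flies. H3K4me3 is a histone mark of the start of transcribed genes, while RNAPolII signal follows the polymerase itself, paused or moving.

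Reads in peaks per library ranged from 2309386 to 9269525 for H3K4me3 (median 4004688) and from 3007711 to 6459322 for RNAPolII (median 3602328). All values below are deposited values, reads per peak divided by a size factor of the library. Neuronal markers had H3K4me3 peaks at 6 of 6 genes, with a median value of 1069, although elav and Syn had only 27.8 and 41.0. Of the defining genes of testis, muscle, blood cells and fat body, 10 of 19 had an H3K4me3 peak. Their list medians lay between 23.0 and 53.1, but Ppn of blood cells had 569.6 and apolpp of fat body 637. The glial list had H3K4me3 peaks at 3 of 5 genes, from 19.4 to 57.5, and none at repo. The photoreceptor list had them at 5 of 5 genes, with a median of 19.8 and 751 at norpA. With RNAPolII the neuronal list had a median of 799, the glial one 438, photoreceptors 408, muscle 403, testis 192, fat body 177 and blood cells 67.5. Of the RNAPolII libraries, 3 (GH replicate 3 and SH replicate 3 of Or47b and GH replicate 3 of Or67d) stood apart on the first principal component, between -40.5 and -35.4 with the next library at -17.9. The RNAPolII results are given without them where that changes a count.

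Most of the genes had a peak of each antibody. An H3K4me3 peak lay over 70 of the 92 genes and an RNAPolII peak over 72, and all of these passed the filter on low values. Both antibodies had a peak at 57 genes. H3K4me3 alone had one at 13, the stalk genes RpLP1 and RpLP2, the large subunit genes RpL18, RpL22, RpL24, RpL26, RpL29, RpL31 and RpL7-like, and the small subunit genes RpS3, RpS7, RpS24 and RpS28-like. RNAPolII alone had one at 15, RpL4, RpL10Aa, RpL11, RpL13, RpL41, RpS2, RpS5a, RpS5b, RpS14b, RpS15Ab, RpS19b, RpS20, RpS21, RpS29 and RpS30. No peak of either table used here lay over 7 genes, among them RpL22-like, RpL24-like, RpL37-2 and RpS14a. RpL22-like is known from the testis, and RpL24-like is a ribosome assembly factor, known as such from yeast. RpL3 and RpS25 share 1 RNAPolII peak, so their RNAPolII values are the same number and not separate measurements.

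Ribosomal protein genes carried some of the strongest H3K4me3 of the brain. Their median value was 1203 against 33.5 over the 14513 tested peaks, and 69 of 70 lay among the strong peaks, taken here as the top 25% of tested peaks by mean value (above 263 with H3K4me3 and above 262.5 with RNAPolII). Their peaks were also longer, with a median of 1996 bp against 984 bp. Per kilobase of peak the median was 715 against 37.0, at the percentile 92.4 of all tested peaks. The highest values were at RpL36A (3814, chromosome 2L from 8041025 to 8044337), RpL32 (3750, 3R from 30045369 to 30048159), RpS28a (2741), RpS25 (2517) and RpS24 (2397). RpL32, a large subunit protein also known as rp49, is a reference gene of many fly expression assays. Its peak also covers CG7943. In all, 25 of the 70 peaks covered 1 protein-coding gene and 45 covered more, up to 6, so a value is that of a gene and its neighbours.

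At the low end stood RpS10a (111), RpL7A (324), RpS28-like (359.5), RpL39 (413) and RpL27 (460.2). The order changes once length is taken into account. RpL39, which encodes a very small protein lining the exit tunnel of the large subunit, has a peak of only 377 bp (2R from 24062039 to 24062415) and reached 1096 per kb, above the median of the group. RpL27 (431 per kb) and RpL7A (144 per kb) stayed below that median, and RpS10a stayed lowest, at 42.0 per kb, in a peak it shares with tau. RpS10a was the single member outside the strong peaks. The range per kb ran from 42.0 to 1629, the latter at RpL26, and the 25 peaks over 1 gene had a median of 714, close to that of all 70.

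RNAPolII was also higher over ribosomal protein genes than over other peaks, with less contrast. Over the 57 genes with both peaks the median H3K4me3 was 35.9 times, and the median RNAPolII 4.03 times, that of all tested peaks of the antibody. Over all 72 genes with an RNAPolII peak the median was 387 against 97.6 over 21076 tested peaks, with a median peak length of 5984 bp against 2263 bp, and 52 of 72 lay in the strong peaks. Per kilobase the median was 68.7 against 40.5, at the percentile 82.3. The highest values were 1044 at the peak over RpL3 and RpS25 (3R from 11212782 to 11225496, over 6 genes), 924 at RpLP0-like, 879 at RpL35A and 857 at RpL28. The lowest were RpS5a (17.2), RpS10b (72.5), RpL37-1 (97.5), RpL38 (114) and RpL15 (114). RNAPolII peaks covered 1 gene in 11 cases and up to 8 genes in the other 61. The 11 peaks over 1 gene had a median of 45.1 per kb, only a little above the 40.5 over all tested peaks.

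Genes with more H3K4me3 per kb tended to have more RNAPolII per kb. Over the 57 genes with both peaks Spearman's rho was 0.54, a description across genes that share libraries and peak calling. Part of this lay between chromosomes, and over the 47 genes off the X rho was 0.39. The 11 members on the X had a median H3K4me3 of 374 per kb against 761 for the 58 on chromosomes 2 and 3. Over all tested peaks the order was the other way, 74.5 on the X against 35.4, while over the strong peaks it was 429 against 574. RNAPolII per kb was 42.1 over 12 X-linked members against 69.6 over 59 on chromosomes 2 and 3. Over all tested peaks it was 33.1 against 44.2, and over the strong peaks 53.2 against 62.2. Large and small subunit genes had close medians, 727 per kb over 40 genes against 646 over 26 with H3K4me3, and 69.2 over 38 against 68.3 over 32 with RNAPolII. These differences between genes were not tested.

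**Figure D1:**
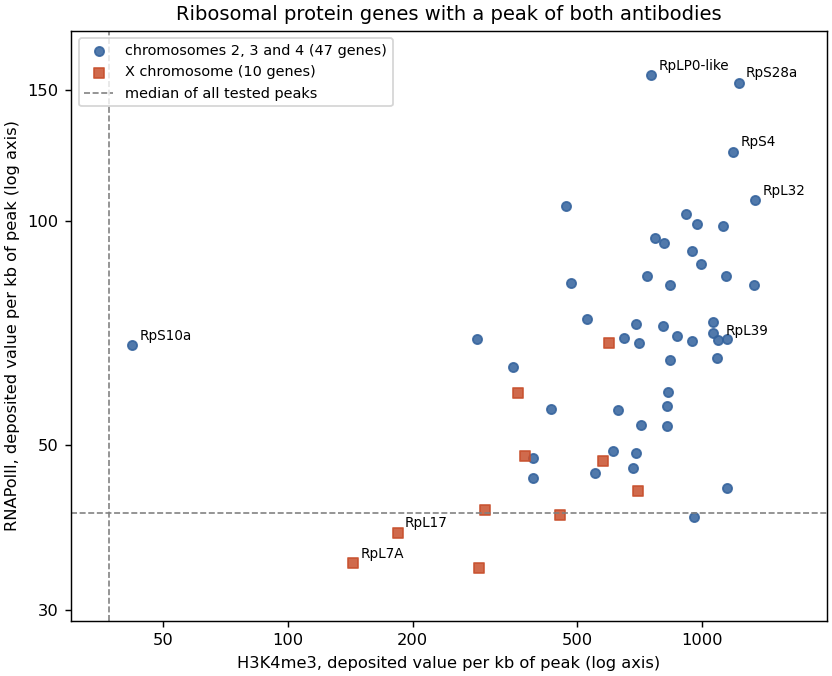
H3K4me3 (x axis) and RNAPolII (y axis) of 57 ribosomal protein genes with both peaks, as mean deposited value per kilobase of peak over 30 libraries of each antibody, both on log axes. X-linked genes (squares) lie toward the lower left, RpS10a is the single gene with H3K4me3 near the median of all tested peaks (dashed), and RpLP0-like and RpS28a have the most RNAPolII per kb.

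Several members are near-copies or more distant relatives of each other, and most such sets differed in signal. RpS10b, on the X, had 299 per kb of H3K4me3 against 42.0 at RpS10a, but 40.8 per kb of RNAPolII against 68.1. RpL34b had 807 per kb of H3K4me3 and RpL34a 350.2, with RNAPolII of 72.2 and 63.6. In the RpS28 trio H3K4me3 was 1226 per kb at RpS28a, 595 at RpS28b and 221 at RpS28-like. RpL7 had 838 per kb and RpL7-like, whose yeast relative is an assembly factor, had 252. RpLP0, the base of the stalk, had 869.6 per kb and RpLP0-like, related to the yeast assembly factor Mrt4, had 754, but RNAPolII was 69.98 per kb at RpLP0 and 157 at RpLP0-like, whose peak also covers Jra and 14-3-3zeta.

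For 8 other sets the antibodies did not both have a peak at each copy. RpL10Ab, RpL22, RpL24, RpL37-1, RpS15Aa and RpS19a had H3K4me3 of 484, 489, 889.6, 455, 289 and 359.8 per kb. Their partners RpL10Aa, RpL22-like, RpL24-like, RpL37-2, RpS15Ab and RpS19b had no H3K4me3 peak in the tables used here. RNAPolII peaks lay over RpL10Aa (34.6 per kb), RpS15Ab (59.6) and RpS19b (73.1), the last over 3 genes and RpS15Ab over 6. RpS5a and RpS5b had RNAPolII peaks alone, 32.9 and 66.5 per kb, and of RpS14a and RpS14b only the latter had one, 99.6 per kb. RpS5b and RpS19b are known from the germ line. Reads from near-identical copies can be split between them, and nothing at hand says how the authors handled such reads, so these sets are uncertain.

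Between CS and the mutants, the clearest difference was at H3K4me3 in Or67d males. There H3K4me3 was higher at 59 of 70 ribosomal protein genes and lower at 0 (limma, adjusted p below 0.05). Over all tested peaks 30% were called, 17.5% higher and 12.5% lower, and among the strong peaks, where nearly all these genes lie, 59.7% were called higher. The log2 change was positive at all 70, from 0.11 to 0.58, and at 97.5% of the strong peaks. The median over the 70 genes was 0.30, against 0.24 over the strong peaks and -0.06 over all peaks. So the genes followed the direction of other strong peaks, with a share and a median somewhat above theirs, and this margin was not tested. By role, 36 of 40 large subunit genes, 19 of 26 small subunit genes and 4 of 4 stalk or stalk-like genes were called. On the X 9 of 11 were called, with a median of 0.30, and elsewhere 50 of 59, also with a median of 0.30.

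The 5 genes with the largest change were RpL39, RpL27, RpS27A, RpL32 and RpL34b. At RpL39 the 6 CS libraries ran from 259 to 400.0 with a median of 332, and the 6 Or67d libraries from 453 to 536 with a median of 499. The groups did not overlap, and the change was 0.58 ± 0.11 (log2, SE, n = 6 against 6, limma adjusted p = 8.57e-05). At RpL27 CS ran from 312 to 461 (median 373) and Or67d from 506 to 622 (median 558), a change of 0.55 ± 0.10 (limma adjusted p = 2.68e-05). RpS27A encodes a small subunit protein fused to ubiquitin, which is cut off after translation. There CS ran from 534 to 885 (median 733) and Or67d from 931 to 1129 (median 999.7), a change of 0.54 ± 0.10 (limma adjusted p = 7.74e-05).

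RpL32 was high in every genotype and highest in Or67d. CS ran from 2775 to 3717 (median 3326) and Or67d from 3919 to 4807 (median 4512), a change of 0.45 ± 0.08 (limma adjusted p = 8.3e-05). RpL34b, in a peak over 4 genes, had 1721 to 2368 in CS (median 1984) and 2409 to 2962 in Or67d (median 2800.0), a change of 0.45 ± 0.08 (limma adjusted p = 0.000106). At all 5 genes every Or67d library lay above every CS library. That held for 14 of the 70 genes, against 4.02% of all tested peaks and 13.1% of the strong peaks.

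**Figure D2:**
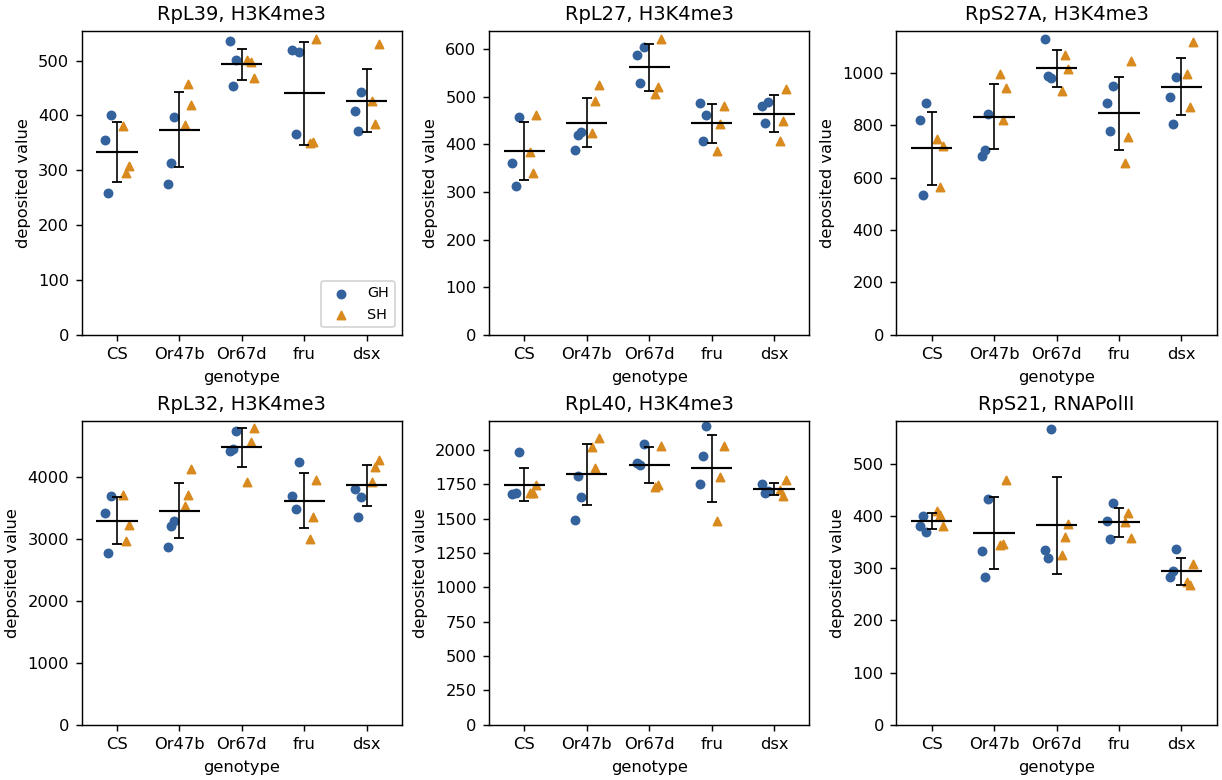
Deposited values of each library by genotype, with GH as circles and SH as triangles, the mean as a bar and the SD over 6 libraries as whiskers. Or67d libraries lie above all CS libraries at RpL39, RpL27, RpS27A and RpL32 but overlap them at RpL40, and the RNAPolII value of RpS21 is lowest in dsx.

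The other 11 genes, all with positive changes, did not pass. RpL40, the other ubiquitin fusion gene, was singled out after its values were seen because it changed least. It ran from 1679 to 1986 in CS (median 1689) and from 1733 to 2043 in Or67d (median 1899), and the groups overlapped (0.11, 95% interval -0.05 to 0.28, limma adjusted p = 0.274). The low member RpS10a (0.13, -0.13 to 0.40) and RpS28-like (0.13, -0.07 to 0.33) did not pass either. Of near-copies, RpL34b was called and RpL34a was not (0.18, 0.01 to 0.35, limma adjusted p = 0.0951), and RpS10b was called (0.37, 0.17 to 0.58) where RpS10a was not. Whether the change differs between copies was not tested. Across the 70 genes, 69 of them in strong peaks, the change had a Spearman rho of -0.04 with the level. Their levels ran from 111.5 to 3814. The median change was 0.24 over the strong peaks and -0.06 over all tested peaks.

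**Figure D3:**
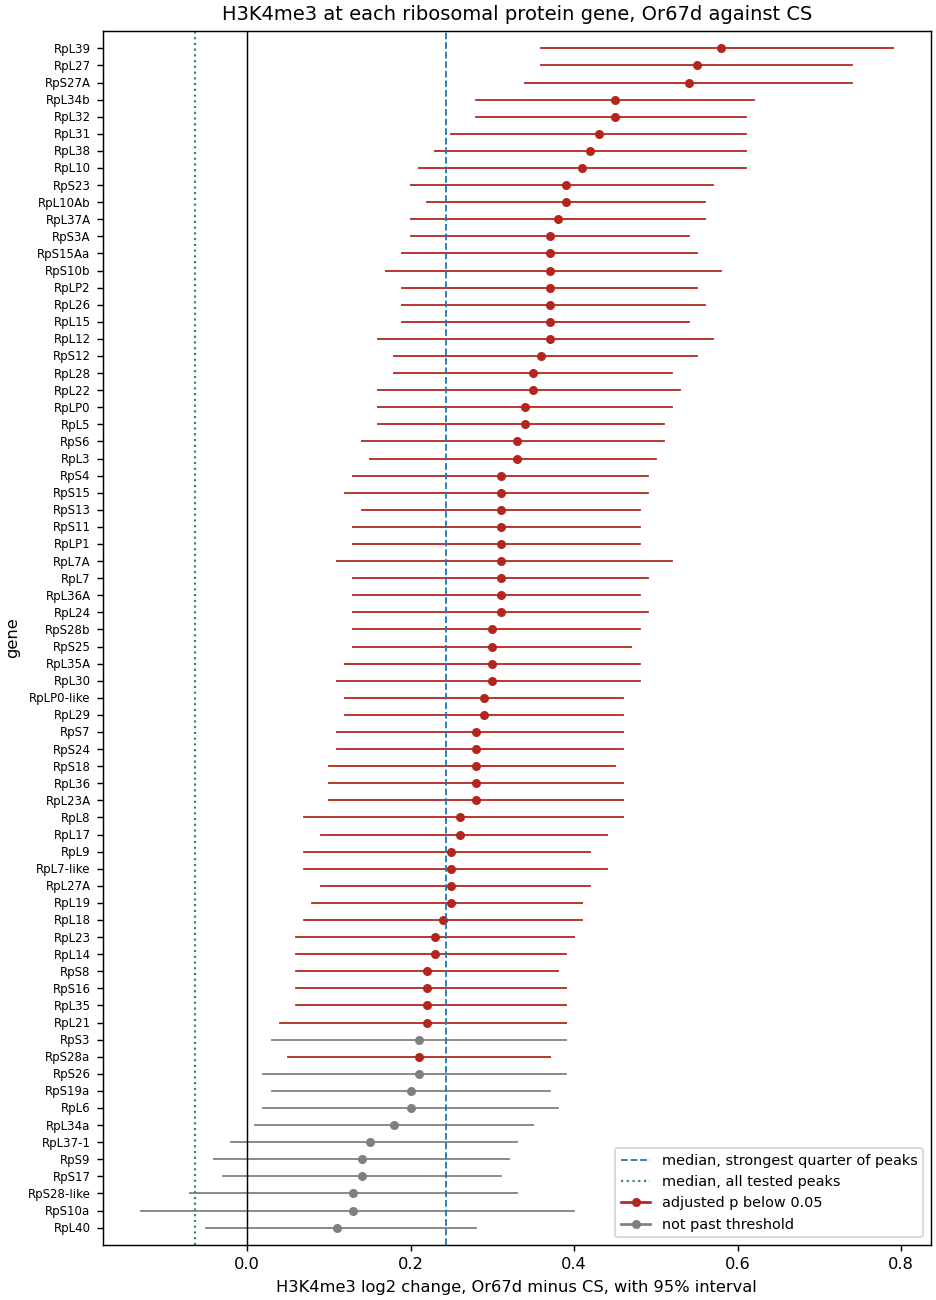
Log2 change of H3K4me3 in Or67d against CS at each of 70 ribosomal protein genes (x axis), with 95% intervals, ordered by size; red marks adjusted p below 0.05. All points lie to the right of 0, and most lie near or above the median of the strong peaks (dashed).

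The number of genes called rested on a few libraries and on how strong and weak peaks were balanced. CS GH replicate 2 and CS SH replicate 2 had the smallest share of signal in these genes, 2.19% each. Without CS GH replicate 2 the count was 32, without Or67d SH replicate 3 it was 39, and without both CS replicates named it was 11. The log2 distance between the 90th and the 10th percentile of peaks ran from 5.75 to 6.54 in CS libraries and from 6.43 to 6.82 in Or67d. With that distance as a covariate in the fit, 1 gene was called, RpL32 (0.20, limma adjusted p = 0.0142), and the median change was 0.03. The 2 ranges overlap only between 6.43 and 6.54, so this fit cannot tell the distance apart from genotype. With quantile normalization 6 were higher (RpL27, RpL31, RpL32, RpL34b, RpL39 and RpS27A). RpL40 was lower under it (-0.15, limma adjusted p = 0.016), and the median was 0.05. Quantile normalization gives every library the same distribution, so it too removes a difference shared by the strong peaks. On the 26 libraries whose values were taken as whole reads, which lack CS GH replicate 2, limma called 42, DESeq2 45 and edgeR 23, all higher. Shares of all or strong peaks called are not given for any of these settings. The counts therefore do not set these genes apart from other strong peaks.

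**Figure D4:**
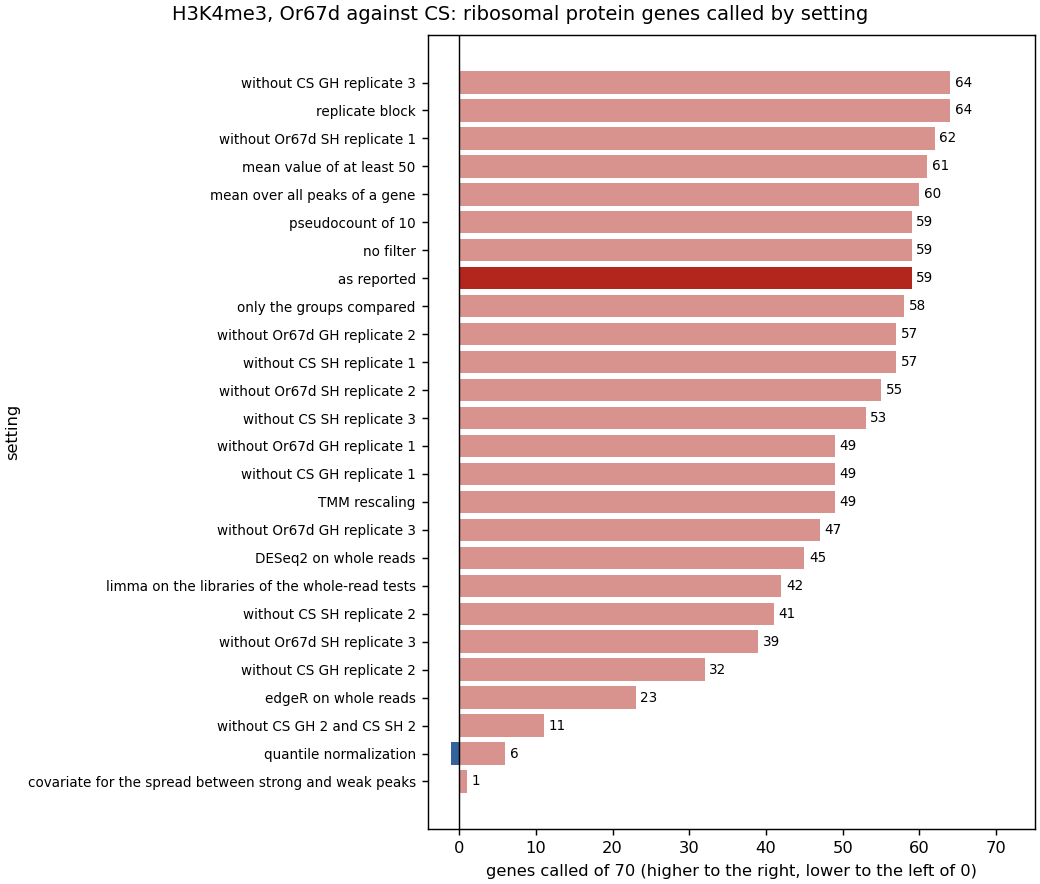
Number of the 70 genes called in the H3K4me3 comparison of Or67d with CS (x axis, higher to the right and lower to the left of 0) under each setting that keeps all 70 genes. The count runs from 1, with the strong-to-weak distance as a covariate, to 64, and it is 59 as reported. The edgeR and DESeq2 bars rest on 26 of the 30 libraries, as does the bar of limma on those libraries.

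Summed over the 70 genes, the same values gave the highest share of signal in Or67d. The genes held from 2.19% to 2.36% of all H3K4me3 signal in the 6 CS libraries (median 2.29%) and from 2.37% to 2.46% in the 6 Or67d libraries (median 2.43%). The ranges did not overlap, but they nearly met. The share held by all strong peaks is not given, so this does not set these genes apart from them. The other mutants ran from 2.23% to 2.41% and overlapped CS.

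No such change was called with RNAPolII in Or67d. An unadjusted p below 0.05 was reached there by 5 of 72 genes, against 7.42% of the strong peaks. By limma 0 of the 72 genes were called, and edgeR and DESeq2 on whole reads also called 0. Over all tested peaks 1.08% were called. The median log2 change was -0.04, against -0.01 over the strong peaks. At RpL39 RNAPolII was 597 ± 57.2 (SD, n = 6) in Or67d and 599 ± 37.8 in CS, a change of -0.01 with a 95% interval of -0.15 to 0.14. At RpL27 the change was 0.01 (-0.18 to 0.21), at RpS27A -0.07 (-0.20 to 0.06) and at RpL32 -0.03 (-0.16 to 0.11). These intervals lie below the H3K4me3 changes at the same genes, but the antibodies were not compared in one test. All 72 intervals lay within 2-fold in either direction. Over the 57 genes with both peaks the changes of H3K4me3 and RNAPolII had a Spearman rho of 0.20.

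**Figure D5:**
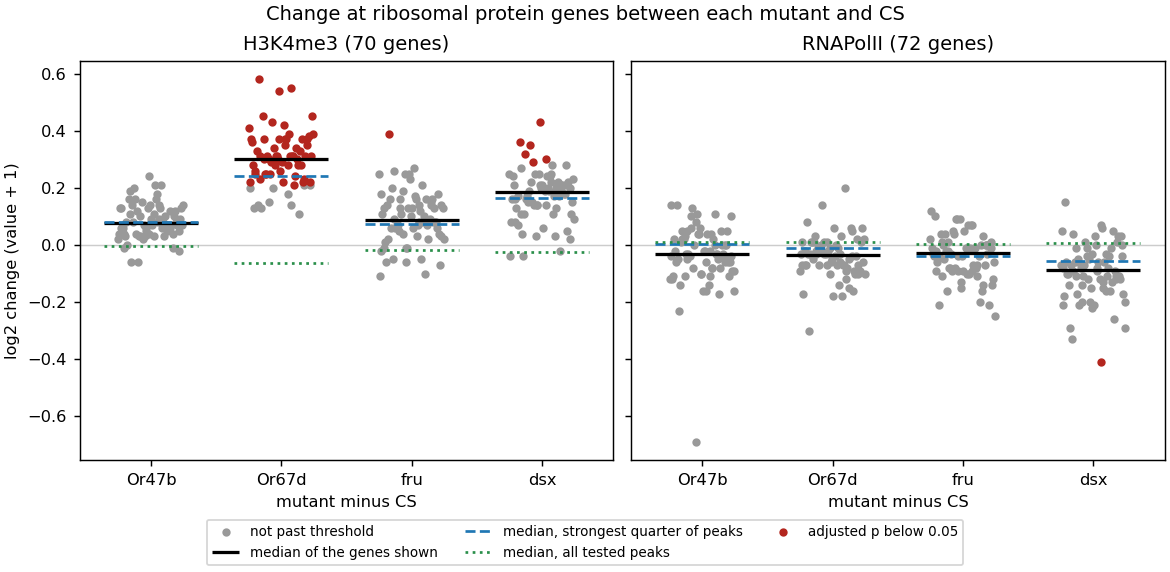
Log2 change of each ribosomal protein gene (point) between each mutant and CS, for H3K4me3 (70 genes) and RNAPolII (72 genes); red points have adjusted p below 0.05, and lines mark medians. The H3K4me3 medians follow those of the strong peaks (dashed), and the lone point near -0.69 with RNAPolII in Or47b is RpS5a, which did not pass the test.

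In dsx males H3K4me3 was higher at 6 of 70 genes and lower at 0, where 5.4% of all tested peaks were called, 3.42% higher, and 9.15% of the strong peaks were called higher. The median change was 0.18, against 0.16 in the strong peaks. An unadjusted p below 0.05 was found at 36 of the 70 genes, against 44.3% of the strong peaks and 26.1% of all peaks. This comparison uses the same CS libraries as that of Or67d. RpS27A ran from 534 to 885 in CS and from 805 to 1116 in dsx (median 946), a change of 0.43 ± 0.10 (limma adjusted p = 0.00382), with overlapping groups. RpL39 ran from 372 to 531 in dsx (0.36 ± 0.11, limma adjusted p = 0.0314). RpS28b, an X-linked small subunit gene, ran from 927 to 1236 in CS (median 1019) and from 1153 to 1495 in dsx (median 1403), a change of 0.35 ± 0.09 (limma adjusted p = 0.00805). Each of these groups overlapped CS.

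The other genes called in dsx were RpL12, RpL22 and RpL31. RpL12, part of the base to which the stalk binds, is the neighbour of RpL39 on 2R, and its H3K4me3 was 894 ± 92.1 against 729 ± 165 (0.32 ± 0.10, limma adjusted p = 0.0481). RpL22, whose fly protein carries a histone H1-like extension, had 900.4 ± 73.3 against 734 ± 98.2 (0.30 ± 0.09, limma adjusted p = 0.0375). RpL31, the smallest change of the 6 and therefore outside the naming rule, had 1837 ± 188 against 1511 ± 226 (0.29 ± 0.09, limma adjusted p = 0.0429). RpL34b, with 1 of the 5 largest changes in Or67d, was not called in dsx (-0.04, 95% interval -0.21 to 0.12). The dsx count was 1 without CS GH replicate 2 and 28 without CS GH replicate 3. It was 2 without CS SH replicate 2, 12 without dsx SH replicate 1, and 2 or 3 without each of dsx GH replicates 1 and 3 and SH replicates 2 and 3. With the strong-to-weak distance as a covariate no gene was called higher and RpL34b was lower (-0.22, limma adjusted p = 0.00188). The distance ran from 6.27 to 6.86 in dsx against 5.75 to 6.54 in CS, so this fit cannot fully tell it apart from genotype. Shares of all peaks called are not given for these settings.

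With RNAPolII, dsx males had lower signal at 1 of 72 genes, RpS21, where 1.84% of all tested peaks were called, 0.883% lower. RpS21, a small subunit protein whose loss gives overgrown blood-forming organs in larvae, ran from 369.6 to 409.9 in CS (median 390.5) and from 269 to 338 in dsx (median 288). The groups did not overlap, and the change was -0.41 ± 0.11 (limma adjusted p = 0.0456). The call was lost without any 1 of 11 of the 12 libraries. On the 28 libraries taken as whole reads, which lack CS SH replicate 2, neither edgeR (adjusted p = 0.107) nor DESeq2 (0.106) nor limma (0.104) made it. Its peak (2L from 2855153 to 2859121) also covers CG3104 and CG2991, and no H3K4me3 peak was found over it. In dsx 15 of the 72 genes had an unadjusted p below 0.05, against 19.7% of the strong peaks and 16.0% of all peaks. Of the 72 changes 60 were negative, with a median of -0.09 against -0.06 in the strong peaks. Positive changes made up 16.7%, against 33.9% in the strong peaks. Without the 3 RNAPolII libraries that stood apart, none of them dsx or CS, 5 genes were called, all lower. No share over all peaks is given for that fit. In 6 of the 72 genes (RpL3 and RpS25 in their shared peak, RpL30, RpL32, RpS16 and RpS21) every dsx library lay below every CS library, against 1.48% of all tested peaks. RpL3 and RpS25 are 1 measurement counted for 2 genes. The same share over the strong peaks is not given, so the count does not set these genes apart from other strong peaks. The 72 genes together held from 0.798% to 0.818% of all RNAPolII signal in dsx and from 0.823% to 0.868% in CS, ranges that did not overlap. The share held by all strong peaks is not given here either. The share ran from 0.773% to 0.833% in Or47b, from 0.784% to 0.835% in Or67d and from 0.803% to 0.859% in fru, each overlapping CS. The 3 left-out libraries enter this comparison only through the shared estimate of spread.

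In fru males H3K4me3 was higher at 1 of 70 genes, RpL39, where 2.2% of all tested peaks were called, 1.26% higher. RpL39 ran from 349 to 539 in fru with a median of 441, overlapping CS, and the change was 0.39 ± 0.11 (limma adjusted p = 0.0281). Leaving out 1 library at a time gave between 0 and 5 genes, with 0 without CS GH 2, CS SH 2, CS SH 3, fru GH 1, fru GH 3 or fru SH 3, 4 without CS GH 3 and 5 without fru SH 1. In all 10 of the 70 genes had an unadjusted p below 0.05, against 16.0% of the strong peaks. The median change was 0.09 against 0.07 in the strong peaks. With RNAPolII 0 of 72 genes were called in fru, where 1.04% of all tested peaks were. An unadjusted p below 0.05 was reached by 5 genes, against 11.1% of the strong peaks. Without the 3 libraries that stood apart 1 gene was called, lower. Shares over all peaks are not given for the fits that leave out libraries. The largest RNAPolII change was at RpS20, -0.25 (95% interval -0.42 to -0.09, limma adjusted p = 0.171).

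In Or47b males no ribosomal protein gene was called with either antibody, against 0.806% of all tested H3K4me3 peaks and 0.56% of RNAPolII peaks. Unadjusted p was below 0.05 at 5 of 70 genes with H3K4me3 and 6 of 72 with RNAPolII, and edgeR and DESeq2 called 0 too. H3K4me3 changes ran from -0.06 at RpS10a to 0.24 at RpS27A, with a median of 0.08. RpS27A was 832 ± 124 against 711 ± 138 in CS (limma adjusted p = 0.375). The widest RNAPolII change was at RpS5a, -0.69 (95% interval -1.26 to -0.13, limma adjusted p = 0.503), which is also the weakest peak, 12.1 ± 5.39 against 18.1 ± 2.69.

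By limma on the group means, housing alone against housing in a group called no ribosomal protein gene with either antibody. That held pooled over the 5 genotypes, within each genotype, and for the difference of a mutant's housing effect from that of CS. With the replicate number added as a block, genes were called for housing in Or47b with H3K4me3, as given below. Of all tested peaks 0.0345% were called with H3K4me3 in Or47b and 0% in each of the other housing comparisons. Pooled over genotypes the median change SH minus GH was 0.04 with H3K4me3 and 0.02 with RNAPolII, and an unadjusted p below 0.05 was reached by 1 gene of 70 and 0 of 72. All 70 H3K4me3 intervals and all 72 RNAPolII intervals of the pooled comparison lay within 2-fold. Within CS the medians were -0.02 and 0.05 (0 and 1 gene with an unadjusted p below 0.05), and in Or67d -0.03 and -0.02 (0 and 2 genes). In fru they were -0.13 and -0.01 (4 and 3 genes), and in dsx 0.12 and -0.02 (0 in both).

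The Or47b males came closest to a housing difference. H3K4me3 was nominally higher in SH than in GH at 69 of 70 genes, against 99.5% of the strong peaks. The median was 0.27, equal to the 0.27 of the strong peaks. An unadjusted p below 0.05 was reached by 42 of the 70 genes, against 56.2% of the strong peaks and 26.3% of all peaks. RpL38, a large subunit gene in pericentric heterochromatin, had the largest value and was singled out for it. Its GH libraries held 409, 435 and 460.4 and its SH libraries 530.3, 652 and 682, which do not overlap (0.51, 95% interval 0.24 to 0.77, limma adjusted p = 0.0874). In CS the same gene held 554, 411 and 549 in GH and 501, 411 and 474 in SH. DESeq2 on whole reads called 26 of the 70 genes higher in Or47b SH and 21 for the difference from CS, where edgeR on the same reads and limma on the same 26 libraries called 0 of each. These libraries lack Or47b SH replicate 2 and CS GH replicate 2. The share of all peaks that DESeq2 called is not given, so its counts do not set these genes apart from other peaks. With RNAPolII the median in Or47b was 0.05, and 4 of 72 genes had an unadjusted p below 0.05.

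Other genes of the translation machinery were read in Or67d against the 59.7% of all strong H3K4me3 peaks called higher there and their median of 0.24. Over all tested peaks 17.5% were called higher. How many peaks of each list are strong is not given, so the lists cannot be ranked against either share. Mitochondrial ribosomal protein genes were higher at 56 of 63 and lower at 0 (88.9%), with a median change of 0.27. Translation factors were higher at 26 of 35 (74.3%), with a median of 0.29, led by eIF5 (0.48) and eIF4G1 (0.47), the scaffold of cap binding. Ribosome biogenesis genes were higher at 16 of 23 (69.6%), led by ppan (0.45) and Non3 (0.41). RNA polymerase I and III genes were higher at 4 of 13 (30.8%), led by Polr1E (0.49). TOR, Myc and initiator regulators were higher at 10 of 18 (55.6%), led by Tsc1 (0.42), an inhibitor of TOR, and Rheb (0.35), its activator. None of these genes was lower. In dsx the counts higher were 11 of 63, 1 of 35, 4 of 23, 1 of 13 and 4 of 18 in the same order, where 3.42% of all peaks and 9.15% of the strong peaks were called higher. In fru they were 0, 0, 0, 1 and 1, where 1.26% of all peaks were called higher, and in Or47b 1 biogenesis gene, ppan (0.38), was called, where 0.806% of all peaks were called in either direction. With RNAPolII the only calls in the 4 mutant comparisons were in dsx, where 0.883% of all peaks were called lower, at 1 of 49 mitochondrial ribosomal protein genes, 3 of 34 translation factors and 1 of 15 polymerase genes, Polr1B (-0.36), all lower.

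Marker genes of cell types were called in both directions in the H3K4me3 comparison of Or67d with CS, and are given with the mean value of their peak. Lower were the weak peaks at Mhc of muscle (-0.46, mean value 60.8), NimC1 of blood cells (-0.99, 18.7), aly of testis (-1.13, 23.0) and Syn of neurons (-0.86, 41.0). Higher were the strong peaks at apolpp of fat body (0.39, 637), norpA of photoreceptors (0.22, 751) and the neuronal genes Syt1 (0.29, 1550) and nSyb (0.34, 1213). The part of cell composition in the ribosomal protein result was not tested.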

How the data were processed

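H3K4me3 and RNAPolII CUT&RUN signal was measured in 60 libraries of male fly brains (5 genotypes, 2 housings, 3 libraries per group and antibody). Per the submitters' processing notes, Trim Galore, Bowtie2, MACS2, DESeq2 and ChIPseeker were used, and no source at hand names their settings or the genome build. The deposited signal values are reads per peak divided by a size factor per library, which the authors applied. This was inferred from the values: within 0.01 of a whole read, 100% of them came out whole in all 60 libraries. In 6 libraries, however, 1 read is worth close to 1 or the lowest counts are missing, so whole reads were not relied on there and these were left out of the count tests (H3K4me3 CS GH 2, Or47b SH 2, fru GH 1 and fru SH 1, and RNAPolII CS SH 2 and Or67d SH 3). Peaks were called by the authors, with 1 peak set per antibody. Canton-S columns carry other replicate numbers than the titles and were matched through the descriptions.

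Gene spans and names came from the RefSeq table of Release 6 plus ISO1 MT. Its build could not be compared with that of the peaks by chromosome length, so a peak is tied to a gene by overlap of coordinates alone. The values were tested as log2(value + 1) with limma 3.58.1 in R 4.3.3 (10 group means, trended eBayes) over all peaks with a mean of at least 10, that is 14513 of 14894 with H3K4me3 and 21076 of 21113 with RNAPolII. There were 14 comparisons per antibody, Benjamini-Hochberg adjustment ran over all tested peaks within a comparison, and calls used 0.05, two-sided. Fold changes on this scale understate those of weak peaks. Intervals are 95% and come from the fit, and the labels call the 3 libraries of a group biological replicates. edgeR 4.0.16 and DESeq2 1.42.0 were run on the whole reads of the other 54 libraries as alternatives, so tool and library set change together, and limma was run on the same libraries beside them. Fits were tested on simulated data, with 50 peaks per antibody changed 1.25-fold. Of these limma called 32% with H3K4me3 (94.1% of the 17 strong ones) and 10% with RNAPolII (28.6% of 7 strong ones). Each peak was simulated on its own, without differences in strong-to-weak distance between libraries. These rates therefore do not show how the fit performs where that distance differs, as it did with H3K4me3.

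Members, gene lists and tests were chosen with earlier results of these data known. The text names, per antibody, the 5 highest and 5 lowest members and up to 5 called members per mutant comparison and direction. It also names up to 2 for housing within a genotype and members with a peak of 1 antibody alone. Near-copies or relatives, and up to 2 called genes per other list, are named too. RpL26, RpL31, RpL38, RpL40, RpS20 and members described only by lacking overlap or under another setting were named after their values were seen. Some items that this rule would name are not reported here. No sequence was used here.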

Additional observations from a re-analysis of the deposited data

How the results depend on the processing

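Of 14 calls of single genes that were recomputed, none reversed under any of the 25 settings each was run with. RpL32 in Or67d was called under all of them and the other 4 genes with the largest Or67d changes lost the call under 1 each. RpS10b in Or67d lost it under 4, RpS28b in dsx under 2 and RpS27A in dsx under 3. The rest lost theirs under 12 to 15 of the 25: RpL39 in dsx and in fru under 12 each, RpL12 and RpL31 in dsx under 14 each, and RpL22 and, with RNAPolII, RpS21 in dsx under 15 each. The number of genes called moved more. For H3K4me3 in Or67d the 59 calls became 7 with quantile normalization (6 higher and 1 lower), 1 with the strong-to-weak distance as covariate, 23 with edgeR (42 with limma on the same libraries, chosen after seeing the data), 21 of 25 when only peaks over 1 gene were used, 11 without CS GH 2 and CS SH 2 (chosen after seeing the data), and 32 to 64 leaving out 1 library at a time. In dsx the 6 became 5 with quantile normalization (RpS27A and RpS28b higher, and RpL34b, RpL40 and RpS28a lower by 0.20, 0.19 and 0.14), 15 with a mean of at least 50, 1 (lower) with the covariate, 2 with edgeR, 2 with DESeq2, 2 with limma on their libraries, 3 of 25 over single-gene peaks, 0 without both CS libraries and 1 to 28 leaving out 1 library. In fru the 1 became 5 with quantile normalization (3 higher and 2 lower), 2 with TMM, 0 with only the groups compared, 3 (all lower) with the covariate, 2 with the mean over all peaks of a gene, 0 without both CS libraries, 0 with edgeR, 0 with DESeq2, 0 with limma on their libraries and 0 to 5 leaving out 1 library. For housing in Or47b the 0 became 1 with a mean of at least 50, 4 with only the groups compared, 26 with DESeq2 (0 with limma on its libraries) and 0 to 1 leaving out 1 library, and its difference from CS became 21 with DESeq2 and 0 to 1 leaving out 1 library. With RNAPolII, the 1 gene of dsx became 6 with only the groups compared, 5 without the 3 libraries that stand apart (chosen after seeing the data), 0 with the covariate, 0 with edgeR, 0 with DESeq2, 0 with limma on their libraries, 0 over single-gene peaks and 0 to 1 leaving out 1 library, and the 0 of fru became 1 with only the groups compared and 1 without those 3 libraries. The causes were not tested, and no share over all peaks is given beside these counts. Where the strong-to-weak distance differs between genotypes, the covariate fit cannot fully separate it from genotype. Of the 26 settings each, 7 moved the count over 1.5 times for H3K4me3 in Or67d, 16 in dsx, 18 in fru and 17 for RNAPolII in dsx. Median changes moved by more than the replicate spread in 13 cases, among them Or67d H3K4me3 to 0.05 and 0.03, dsx to 0.02 and -0.01 and Or47b housing to 0.01 and 0.00 with quantile normalization and the covariate.

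Nothing in the labels says that a replicate number marks a shared batch, and the numbers were not used as pairs. The deviations of same-numbered libraries had a median correlation of 0.057 with H3K4me3 and 0.009 with RNAPolII, 35.6% and 14.1% of pairs exceeded 0.1, and 17 and 12 of 30 libraries correlated best with their own number in other groups. Replicate 3 had the largest strong-to-weak distance in 9 of 10 H3K4me3 groups and the highest median of the ribosomal protein genes in 8 of 10, and the 3 RNAPolII libraries that stood apart are all numbered 3. A shared batch by number was not tested otherwise. With the replicate number as a block, the H3K4me3 calls were 64 in Or67d, 33 in dsx, 7 in fru and 36 for housing in Or47b. No share over all peaks is given for that fit, so these counts do not set the genes apart from other peaks.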

Other observations

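The 3 RNAPolII libraries that stood apart also stood apart at some ribosomal protein genes. At 6 of 72 genes all 3 lay above all 27 other libraries, and at 0 genes below. No such share over all tested RNAPolII peaks is given, so the count does not set these genes apart from other peaks. RpLP0-like had 1370 to 1482 in the 3 libraries and 748 to 1026 in the others (median 854). RpS28b had 445 to 527 against 229.7 to 369, RpS21 433 to 566 against 269 to 426, and RpL38 157 to 173 against 83.4 to 145. The other two were RpS14b (473 to 485.5 against 289 to 433) and RpS28a (426 to 457 against 285 to 424). These genes were chosen by their values, and the libraries come from 2 genotypes and both housings.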
